A study of Mus musculus with 4 samples.

Results

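The 10 heat shock chaperone genes examined here, Hspa1a, Hspa1b, Hspb1, Hspa8, Hspa5, Hsph1, Dnajb1, Dnaja1, Hsp90aa1 and Bag3, were represented by 26 probe sets that name a single gene, of 45101 probe sets on the array, and by 10 of 18194 genes. The genes were picked by name with earlier results of the same arrays known, so all values below are a description and no test was made on them. Expression was measured in whole cortex of C57BL/6J mice, 3 months old, 24 h after permanent occlusion of the left middle cerebral artery (MCAO). The 4 conditions were the P4htm-/- ipsilateral (injured), WT ipsilateral, P4htm-/- contralateral and WT contralateral cortex, with the RNA of 4 mice pooled on 1 array per condition, and every mouse of both genotypes had undergone the occlusion. P4htm-/- mice lack transmembrane prolyl 4-hydroxylase throughout the body, and the line had been backcrossed to C57BL/6. The contralateral cortex came from the same operated mice as the ipsilateral one, and no array of unoperated or sham-operated mice was analysed here. Since each condition is 1 pool on 1 array, the spread between mice is unknown and precision is limited by how few arrays there are.

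Heat shock proteins are molecular chaperones, which bind unfolded proteins and help them to fold, keep them soluble or pass them on for degradation. The inducible members are transcribed at a low level in resting cells and strongly after heat, ischemia or other protein-damaging stress, when heat shock factor 1 binds heat shock elements in their promoters. The constitutive members work all the time, and the chaperone of the endoplasmic reticulum (ER) answers to a separate unfolded protein response. In the brain, induction of the HSP70 genes is a classical mark of tissue stressed by ischemia.

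Hspa1a and Hspa1b, a pair of neighbouring genes for inducible HSP70, had almost the same promoter. The RefSeq table for GRCm38.p6 held promoters of 8 of the 10 genes, all but Hspa8 and Hsp90aa1. The 250 bases before the start site are shown for both HSP70 genes and for Hspb1, whose values differed most between the arrays. They are also shown for Hspa5, whose probe set of highest mean differed little. The sequences were thus picked by these values, and a link between motif and expression was not tested. Capitals mark matches to the heat shock motif GAANNTTC in the first 3 sequences and to the ER stress element, in which CCAAT and CCACG stand 9 bases apart, in the last.
Hspa1a (chr17:34972157-34972406, minus strand): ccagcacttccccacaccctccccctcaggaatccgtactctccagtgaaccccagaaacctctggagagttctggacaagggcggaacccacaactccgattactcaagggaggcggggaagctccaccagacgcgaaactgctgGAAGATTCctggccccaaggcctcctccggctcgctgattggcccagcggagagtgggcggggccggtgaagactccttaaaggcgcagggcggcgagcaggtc
Hspa1b (chr17:34959239-34959488, minus strand): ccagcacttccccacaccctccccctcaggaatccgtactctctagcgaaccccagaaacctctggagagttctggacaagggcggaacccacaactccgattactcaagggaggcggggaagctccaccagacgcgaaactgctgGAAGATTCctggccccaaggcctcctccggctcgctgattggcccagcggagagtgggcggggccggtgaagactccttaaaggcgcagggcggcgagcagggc
Hspb1 (chr5:135887669-135887918, plus strand): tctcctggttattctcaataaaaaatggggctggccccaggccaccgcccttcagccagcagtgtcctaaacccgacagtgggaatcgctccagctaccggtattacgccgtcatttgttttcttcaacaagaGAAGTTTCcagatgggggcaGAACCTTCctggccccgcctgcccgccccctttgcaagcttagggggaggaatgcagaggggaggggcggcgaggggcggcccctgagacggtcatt
Hspa5 (chr2:34771840-34772089, plus strand): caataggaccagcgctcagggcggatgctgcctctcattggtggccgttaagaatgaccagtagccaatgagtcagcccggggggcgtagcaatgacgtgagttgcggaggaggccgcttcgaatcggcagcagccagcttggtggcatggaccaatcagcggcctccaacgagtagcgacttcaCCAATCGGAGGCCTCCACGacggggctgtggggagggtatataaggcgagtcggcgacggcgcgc
Both HSP70 promoters carried the same single match, starting 104 bases before the start site. Of the 250 bases, 247 (98.8%) were identical, and the longest shared run was 201 bases. The differences, given as the Hspa1a base, the position from the 5′ end of the sequence shown and the Hspa1b base, were C44T, T47C and T249G. Hspb1 carried matches starting 117 and 97 bases before its start site.

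Over windows of 250 bases before to 50 bases after the start, both strands were searched for GAANNTTC and TTCNNGAA, which each read the same on the opposite strand, for a longer heat shock motif that joins both, and for the ER stress element. GAANNTTC was found in 7.86% and TTCNNGAA in 8.52% of 32851 windows, and 15.1% held either of them. The longer motif was in 0.603% and the ER stress element in 0.119% of the windows. Among the chaperone genes the longer motif was found in Hsph1, GAANNTTC also in Dnaja1 and Bag3, and none of these motifs in the windows of Dnajb1. The matches to the longer motif in Hsph1 and to GAANNTTC in Bag3 lay after the start site, while a TTCNNGAA of Hsph1 lay before it. The match of Dnaja1 started 124 bases before the start site. Yet the probe set of highest mean of Dnaja1 ranged over only 0.10 between the arrays, against 0.17 for Hspa5. The ER stress element was found in Hspa5 alone of the 8 genes. A match is a description of the letters and not evidence of a bound site.

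The arrays bore out their labels for the targeted gene. Both probe sets of P4htm were lower on the P4htm-/- arrays, by log2 differences of -1.79 and -1.58 on the ipsilateral and -1.76 and -1.71 on the contralateral side. It was not determined where these probe sets lie relative to the deletion. A probe set was called detected above 4.78 on the log2 scale, a limit that 95% of 83 olfactory, taste and vomeronasal receptor probe sets, silent in cortex, fell below, and 59.2% to 59.8% of all probe sets per array were above it. All 12 neuron, 8 astrocyte and 7 oligodendrocyte markers measured were detected on every array. As a yardstick of scatter, the central 95% of the log2 differences of all detected probe sets ran from -0.43 to 0.38 for P4htm-/- minus WT ipsilateral cortex and from -0.37 to 0.37 for the contralateral one. For ipsilateral minus contralateral cortex it ran from -0.35 to 0.40 in P4htm-/- and from -0.48 to 0.54 in WT mice. Probe sets of the same gene differed from each other with an SD of 0.13 to 0.18.

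Of the 26 chaperone probe sets, 24 were above background on all 4 arrays. The other two, 1433251_at and 1441827_x_at of Hsp90aa1, read 3.21 to 4.65 and were not above background on any array, so that no fold is given for them. Among the 24, the highest value was on the P4htm-/- ipsilateral array for 21, ties included, and the lowest on the WT contralateral array for 15. How often all detected probe sets have their extremes on these arrays was not counted, so these counts cannot be read as a trait of the group. Several of the 24 share a gene, and some ranged little over the arrays, down to 0.07 for 1420623_x_at of Hspa8.

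**Figure D1:**
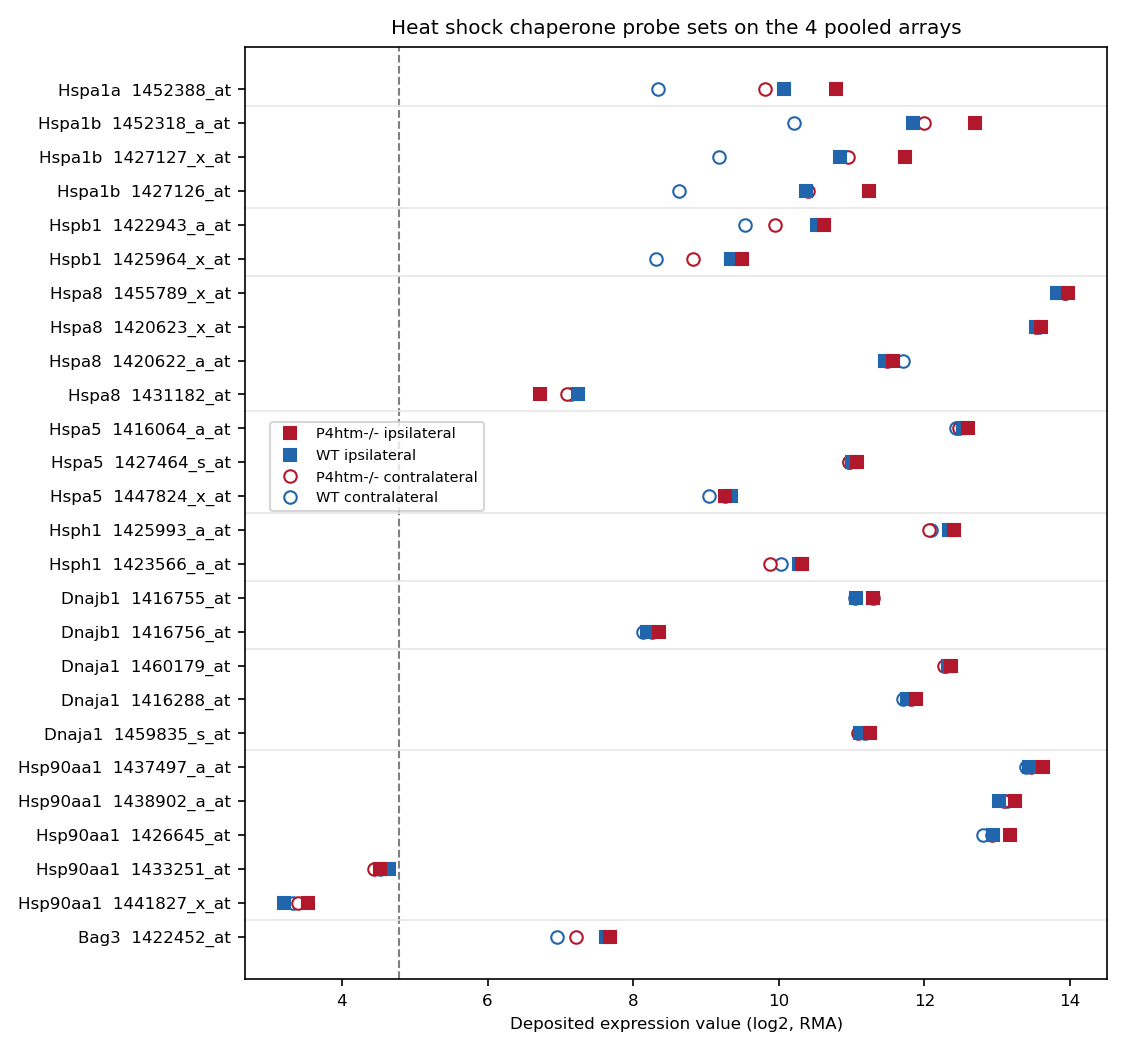
Deposited log2 values (horizontal axis) of the 26 probe sets of the 10 chaperone genes, each symbol 1 pooled array, with P4htm-/- in red and WT in blue, filled squares for ipsilateral and open circles for contralateral cortex. Background (4.78) is drawn as a dashed line, and only the 4 HSP70 probe sets in the first rows are spread over more than 2 log2 units, with the WT contralateral circle far to the left.

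The inducible HSP70 transcripts were higher in P4htm-/- than in WT cortex on both sides of the brain, and more so on the uninjured side. Hspa1a read 10.79 in P4htm-/- ipsilateral, 10.07 in WT ipsilateral, 9.81 in P4htm-/- contralateral and 8.34 in WT contralateral cortex. Its protein is stress-inducible HSP70, an ATP-driven chaperone of the cytosol. Hspa1b, which encodes an almost identical protein, read 12.70, 11.84, 12 and 10.21 in the same order of arrays with probe set 1452318_a_at. It read 11.73, 10.84, 10.95 and 9.18 with 1427127_x_at, and 11.24, 10.37, 10.40 and 8.63 with 1427126_at. All 4 probe sets were lowest in WT contralateral and highest in P4htm-/- ipsilateral cortex.

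On the uninjured side Hspa1b was 3.41 to 3.46-fold and Hspa1a 2.77-fold higher in P4htm-/- than in WT mice. In the ipsilateral cortex these folds were 1.82 to 1.85 for Hspa1b and 1.65 for Hspa1a. The log2 differences of the 4 probe sets, 1.47 to 1.79 contralateral and 0.72 to 0.89 ipsilateral, were outside the central 95% of all probe sets in both comparisons. Hspa1b and Hspa1a ranked 1st and 2nd of 13207 detected genes for P4htm-/- minus WT contralateral cortex, and 1st and 4th of 13363 for the ipsilateral cortex. Of 4 genes at least 2-fold higher in P4htm-/- contralateral cortex, these were 2.

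Of the 10 chaperone genes, 2 were past 1.5-fold higher and 0 lower in the P4htm-/- contralateral cortex, where 0.227% of all detected genes were higher and 0.159% lower. In the ipsilateral cortex it was the same 2 genes and 0 lower, where 0.0898% of all detected genes were higher and 0.576% lower. These shares stand for context only, since the genes were picked with these values known. The median of the 10 genes was 0.16 in the contralateral and 0.125 in the ipsilateral comparison, and the median of all detected genes was -0.01 in both.

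**Figure D2:**
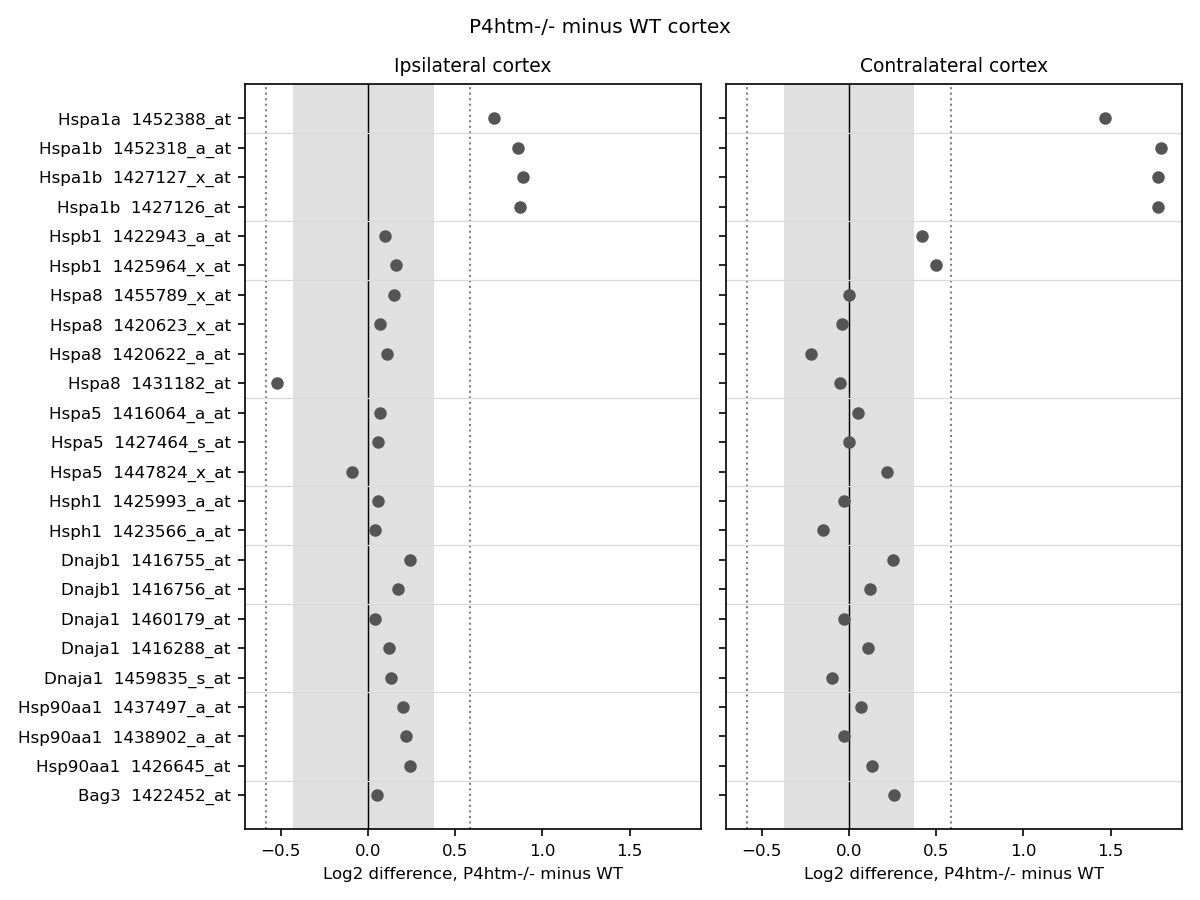
Log2 difference between P4htm-/- and WT cortex for the 24 detected probe sets of the chaperone genes, in ipsilateral (left) and contralateral cortex (right), each point 1 pair of pooled arrays. The grey band holds the central 95% of all detected probe sets and the dotted lines mark 1.5-fold, and the 4 HSP70 probe sets lie at 0.72 to 0.89 on the left and at 1.47 to 1.79 on the right.

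After MCAO the HSP70 genes were higher in ipsilateral than in contralateral cortex of both genotypes, with a smaller difference in P4htm-/- mice. The 4 probe sets differed by 0.70 to 0.98 on the log2 scale in P4htm-/- and by 1.63 to 1.74 in WT mice, which is 1.62 to 1.97-fold and 3.10 to 3.34-fold. Averaged over both genes, the difference between sides was 0.84 in P4htm-/- and 1.68 in WT mice, and the difference between these was -0.84, a value with no replicate check. P4htm-/- mice were above WT mice on both sides, and by more on the contralateral one.

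The level in P4htm-/- contralateral cortex was close to that in WT ipsilateral cortex. For the 3 Hspa1b probe sets the uninjured P4htm-/- array was above the injured WT array by 0.03 to 0.16, and for Hspa1a the log2 difference was -0.26. The order of these 2 arrays thus changed with the probe set. With every HSP70 probe set, P4htm-/- ipsilateral cortex stood above both and WT contralateral cortex below both.

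The probe sets cannot be taken as independent measures of the pair. The transcripts of Hspa1a and Hspa1b are nearly the same in their coding part, so probes of one can bind the other, and the 3 Hspa1b probe sets rest on the same sequence record. The suffix x marks probe sets with probes that match other sequences. Hspa1l, the related testis-type gene next to the pair, read 3.24 to 3.57 and was not above background on any array.

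**Figure D3:**
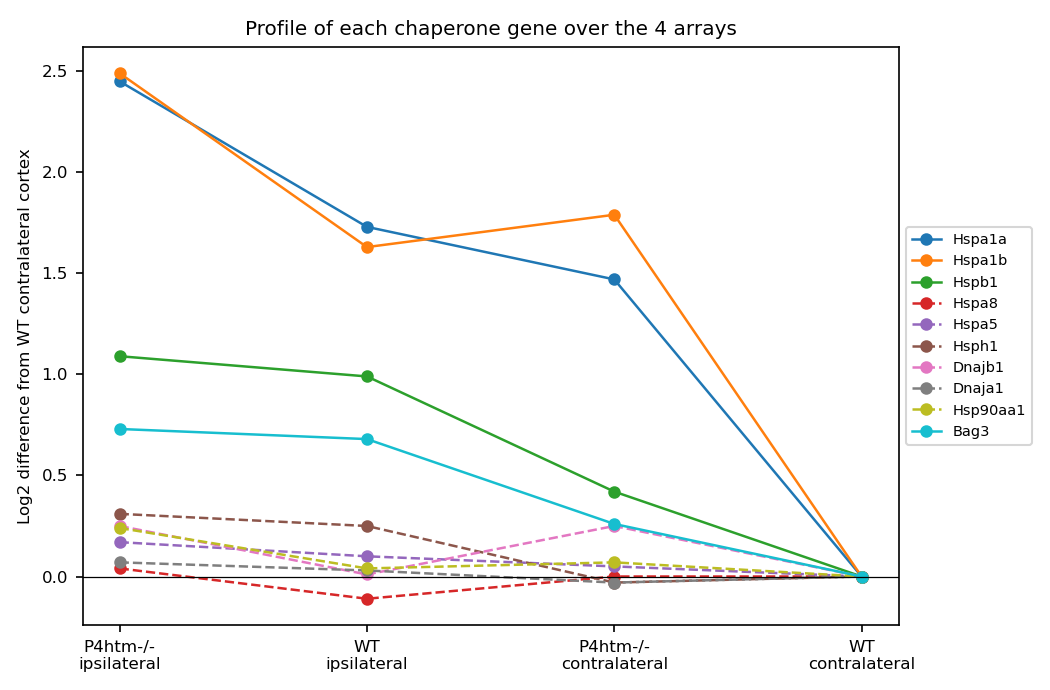
Log2 difference from WT contralateral cortex (vertical axis) on each of the 4 pooled arrays (horizontal axis) for the probe set of highest mean of each chaperone gene, with lines joining the points of 1 gene. Hspa1a and Hspa1b, at 2.45 and 2.49 in P4htm-/- ipsilateral cortex, stand above the rest, Hspb1 and Bag3 follow at 1.09 and 0.73, and the 6 genes with dashed lines stay near 0.

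Hspb1 and Bag3 were higher on the injured side but differed less between genotypes. Hspb1 encodes the small heat shock protein HSP25 of the mouse, which holds unfolded proteins in solution without ATP and is known from reactive astrocytes. It read 10.62 in P4htm-/- ipsilateral, 10.52 in WT ipsilateral, 9.95 in P4htm-/- contralateral and 9.53 in WT contralateral cortex, and 9.50, 9.34, 8.82 and 8.32 with its second probe set. Both ipsilateral arrays were thus above both contralateral ones. The side difference was 1.59 to 1.6-fold in P4htm-/- and 1.99 to 2.03-fold in WT mice. Between genotypes Hspb1 was 1.34 to 1.41-fold higher in P4htm-/- contralateral cortex, which is outside the central 95% of probe sets but short of 1.5-fold, and 1.07 to 1.12-fold in the ipsilateral cortex, within it.

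Bag3 encodes a cochaperone that binds HSP70 and leads its clients to autophagy. Its only probe set read 7.68 in P4htm-/- ipsilateral, 7.63 in WT ipsilateral, 7.21 in P4htm-/- contralateral and 6.95 in WT contralateral cortex. The side difference was 0.47 in P4htm-/- mice, short of 1.5-fold, and 0.68 in WT mice, past it. The genotype differences of 0.05 ipsilateral and 0.26 contralateral were within the central 95%.

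In all, 3 of the 10 genes were past 1.5-fold higher on the ipsilateral side in P4htm-/- mice (Hspa1a, Hspa1b and Hspb1), where 1.53% of all detected genes were higher and 0.165% lower. In WT mice 4 were, with Bag3 added, where 2.42% of all detected genes were higher and 0.443% lower. None of the 10 was past 1.5-fold lower. The median of the 10 genes was 0.255 in P4htm-/- and 0.175 in WT mice, and that of all detected genes -0.02 in both.

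**Figure D4:**
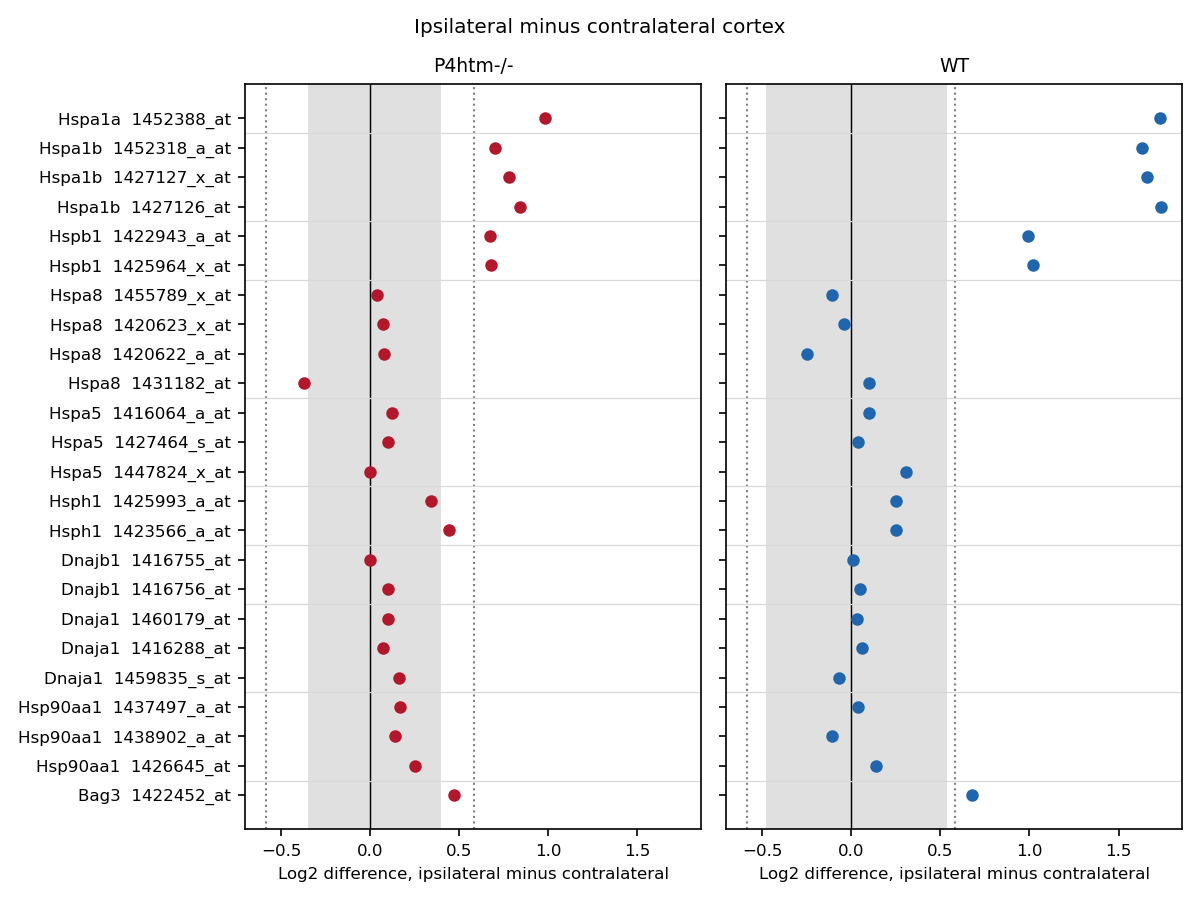
Log2 difference between ipsilateral and contralateral cortex for the 24 detected probe sets of the chaperone genes in P4htm-/- (left, red) and WT mice (right, blue), each point 1 pair of pooled arrays. The grey band holds the central 95% of all detected probe sets and the dotted lines mark 1.5-fold, and the HSP70 probe sets lie at 0.70 to 0.98 on the left and at 1.63 to 1.74 on the right.

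The other 6 genes differed little between the arrays. Their 17 detected probe sets lay between -0.22 and 0.25 for P4htm-/- minus WT contralateral cortex and between -0.25 and 0.31 for WT ipsilateral minus contralateral cortex, with none outside the central 95% in either. For P4htm-/- minus WT ipsilateral cortex they lay between -0.52 and 0.24, with 1 below the central 95%, and for ipsilateral minus contralateral cortex of P4htm-/- mice between -0.37 and 0.44, with 1 below and 1 above. Hsph1, which encodes HSP110, a nucleotide exchange factor of HSP70, was the one closest to the injury pattern. It read 12.40 in P4htm-/- ipsilateral, 12.34 in WT ipsilateral, 12.06 in P4htm-/- contralateral and 12.09 in WT contralateral cortex, and both its probe sets were higher on the ipsilateral side, by 0.34 and 0.44 in P4htm-/- and by 0.25 and 0.25 in WT mice. Of these only the 0.44 was outside the central 95%.

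Dnajb1, the J-domain protein that stimulates the ATPase of inducible HSP70, was slightly higher in P4htm-/- than in WT cortex on both sides. Its main probe set read 11.30 in P4htm-/- ipsilateral, 11.06 in WT ipsilateral, 11.30 in P4htm-/- contralateral and 11.05 in WT contralateral cortex. Both P4htm-/- arrays were above both WT arrays with both probe sets, by 0.17 and 0.24 ipsilateral and 0.12 and 0.25 contralateral, while the sides differed by 0.10 or less. With the second probe set the side difference of 0.10 in P4htm-/- mice was close to the contralateral genotype difference of 0.12. All of these values are within the central 95%.

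Dnaja1, another J-domain partner of HSP70, read 12.27 to 12.37 over the 4 arrays with its main probe set, and its genotype differences ran from -0.10 to 0.13 over 3 probe sets. Hspa8, the constitutive HSC70 that makes up most of the HSP70 of resting neurons, read 13.97 in P4htm-/- ipsilateral, 13.82 in WT ipsilateral, 13.93 in P4htm-/- contralateral and 13.93 in WT contralateral cortex. Its probe set 1431182_at went against the others. Its injured-side values were 6.72 for P4htm-/- and 7.24 for WT cortex, a log2 difference of -0.52, where the other 3 lay between 0.07 and 0.15. Between the sides of P4htm-/- brains it differed by -0.37, and both values are outside the central 95%. Hsp90aa1, the stress-responsive form of cytosolic HSP90, read 13.63, 13.43, 13.46 and 13.39 in the order P4htm-/- ipsilateral, WT ipsilateral, P4htm-/- contralateral and WT contralateral. Its 3 detected probe sets were 0.20 to 0.24 higher in P4htm-/- than in WT ipsilateral cortex and differed by -0.03 to 0.13 on the contralateral side. Hspa5, the ER chaperone BiP, read 12.60, 12.53, 12.48 and 12.43 in that order, a range of 0.17. Its probe set 1427464_s_at ranged over 0.10 and 1447824_x_at over 0.31. For P4htm-/- minus WT cortex 1447824_x_at was at -0.09 ipsilateral and 0.22 contralateral. Between the sides it differed by 0.31 in WT and by 0.00 in P4htm-/- mice, all within the central 95%.

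No gene of the rest of the chaperone network was past 1.5-fold between genotypes. Few of all detected genes were, 0.227% higher and 0.159% lower contralateral and 0.0898% and 0.576% ipsilateral. A count of 0 is thus no trait of these lists. In 8 further lists, for heat shock factors, other HSP70 and HSP110 proteins, other small heat shock proteins, other J-domain proteins, other BAG and nucleotide exchange factors, HSP90 and its cochaperones, chaperonins and the unfolded protein response of the ER, 0 detected genes were higher and 0 lower in P4htm-/- than in WT cortex on either side. The contralateral medians were 0.01 for the 3 heat shock factor genes measured, -0.06 for 9 other HSP70 and HSP110 genes and 0.00 for 6 other small heat shock proteins. They were 0.08 for 13 J-domain proteins, -0.10 for 7 BAG and exchange factors, 0.025 for 12 genes of HSP90 and its cochaperones, -0.03 for 10 chaperonins and 0.005 for 22 genes of the unfolded protein response. The ipsilateral medians, in the same order of lists, were 0.08, 0.08, -0.18, 0.10, -0.10, -0.07, -0.08 and 0.00. Among 7 other small heat shock proteins 6 were below 0 ipsilateral. Hspb11, at -0.50, and Hspe1, the mitochondrial HSP10, at -0.45, were outside the central 95% there, short of 1.5-fold, as was Atf3, a stress-induced transcription factor, at 0.39 in contralateral cortex. Hsf1, Hsp90ab1, Ptges3 and Ppid were not analysed here. Chordc1, an HSP90 cochaperone, read 10.46, 10.49, 10.49 and 10.44 in the order P4htm-/- ipsilateral, WT ipsilateral, P4htm-/- contralateral and WT contralateral. Cryab, alpha B-crystallin, read 11.20, 11.38, 11.41 and 11.43. These are single examples and do not stand for the heat shock responsive genes of the lists, of which some, such as Hspe1, differed more.

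A few genes of these lists were higher on the injured side. Hspb6, a small heat shock protein best known from muscle, was higher by 1.18 in P4htm-/- and by 0.98 in WT mice. Atf3 was higher by 1.16 and by 1.48. Hspe1 was past 1.5-fold in WT mice alone, at 0.65 against 0.17 in P4htm-/- mice, a difference that was not tested, and Hspb7 too was past 1.5-fold in WT mice, where its contralateral value was not above background and the difference is at least 0.28. Hspd1, the HSP60 partner of Hspe1, was at 0.29 and 0.14. The medians for ipsilateral minus contralateral cortex of P4htm-/- and of WT mice were 0.00 and -0.01 for heat shock factors, 0.03 and -0.05 for other HSP70 and HSP110 proteins, -0.06 and 0.28 for other small heat shock proteins, with values below background raised to it, -0.01 and -0.01 for J-domain proteins, -0.01 and -0.09 for BAG and exchange factors, -0.015 and 0.015 for HSP90 and its cochaperones, 0.04 and 0.11 for chaperonins, and 0.07 and 0.105 for the unfolded protein response. In the unfolded protein response list, 18 of 22 genes were above 0 in P4htm-/- and 17 in WT mice, with only Atf3 past 1.5-fold. Of all detected genes, 1.53% were past 1.5-fold higher in P4htm-/- and 2.42% in WT mice, with a median of -0.02 in both. A single gene past the limit is thus no trait of this list. How many of all detected genes were above 0 was not counted.

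**Figure D5:**
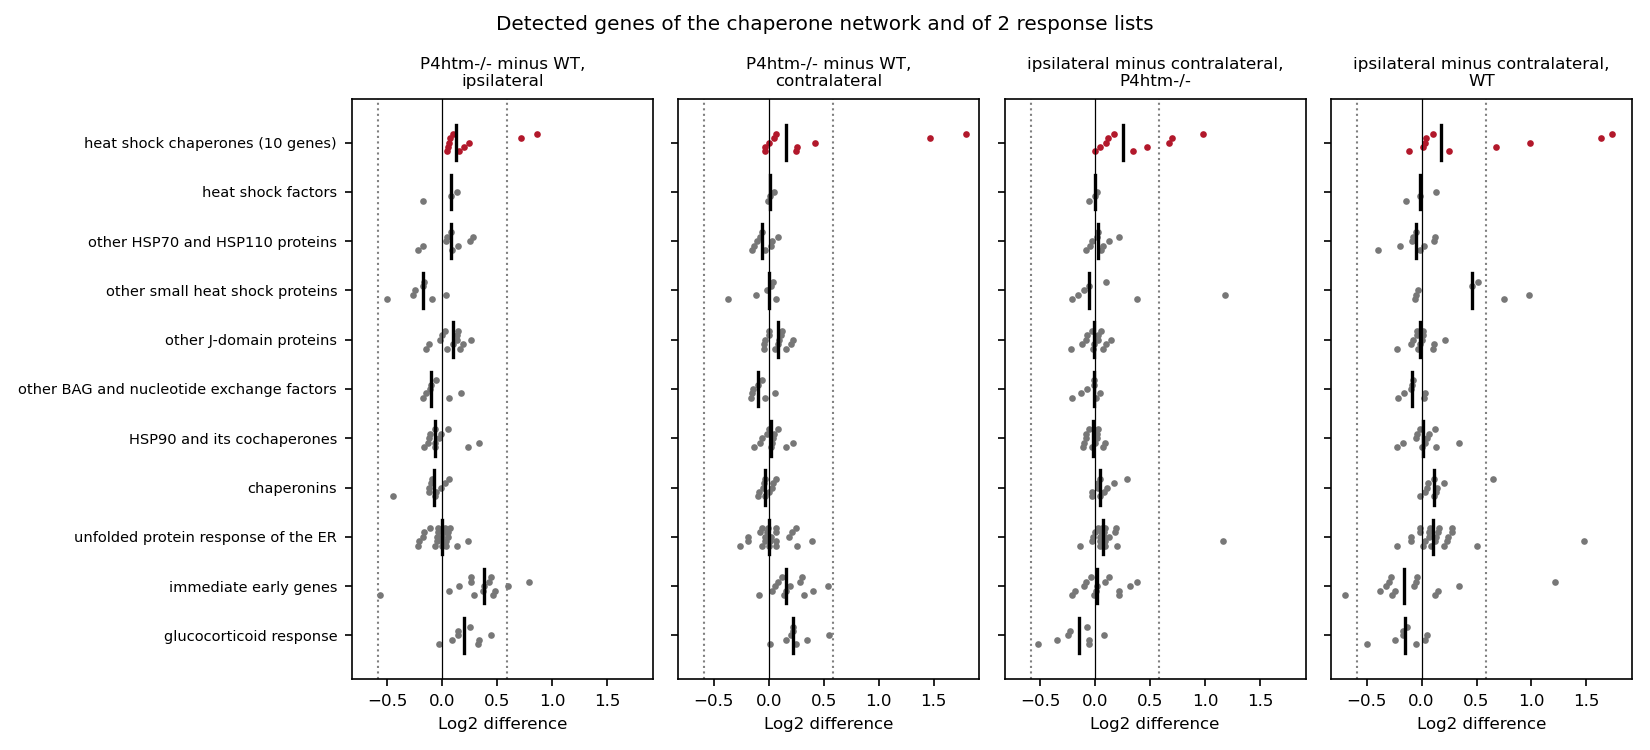
Log2 differences of the detected genes (points, as measured) of each list (rows) in the 4 comparisons (panels), with a black bar at the list median and dotted lines at 1.5-fold. The 10 chaperone genes are red, and no gene of the other chaperone lists passes a dotted line in either panel for P4htm-/- minus WT, where immediate early genes have medians of 0.375 ipsilateral and 0.16 contralateral.

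Immediate early and glucocorticoid-responsive genes were mostly above 0 for P4htm-/- minus WT, few of them past 1.5-fold. Neurons switch on immediate early genes within minutes of activity or stress. Of 14 such genes, 13 were above 0 for P4htm-/- minus WT ipsilateral cortex, with a median of 0.375. Egr2 and Arc were past 1.5-fold, at 0.79 and 0.60. Fosl1, the 1 gene below 0, was at -0.57, short of 1.5-fold. It read 4.86 in P4htm-/- and 5.43 in WT ipsilateral cortex, close to the background limit of 4.78. Contralateral, 12 of 13 detected were above 0, with a median of 0.16, none past 1.5-fold and Fos highest at 0.54. Of all detected genes, 0.0898% were past 1.5-fold higher ipsilateral and 0.227% contralateral, and their median was -0.01 on both sides. Of 8 glucocorticoid-responsive genes, 7 were above 0 ipsilateral and 8 contralateral, with medians of 0.195 and 0.22 and none past 1.5-fold. Zbtb16 was at 0.44 and 0.55, Per1 at 0.25 and 0.35, and Fkbp5, a cochaperone of HSP90 at steroid receptors, at 0.33 and 0.22. For ipsilateral minus contralateral cortex the medians of P4htm-/- and WT mice were 0.015 and -0.155 for immediate early genes and -0.15 and -0.15 for glucocorticoid-responsive genes. The part of these lists in the HSP70 difference was not tested.

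Cell type markers were set beside the same comparisons, where fewer cells of a type and less RNA per cell cannot be told apart. The median of 12 neuron markers was 0.15 ipsilateral and -0.06 contralateral for P4htm-/- minus WT, and that of 7 oligodendrocyte markers -0.19 and -0.11. For 8 astrocyte markers it was -0.08 and -0.055, for 9 microglia markers -0.07 and -0.12, and for 8 endothelial markers -0.105 and -0.035. The reactive astrocyte list was at -0.11 and 0.05, and 8 genes of choroid plexus and ependyma at -0.095 and 0.01. For this list, neutrophils and blood cells, several genes were near background, so values below it were raised to it and the same genes were kept in each comparison. Of 9 neutrophil markers measured, 4 were above background on at least 1 array, with medians of 0.17 ipsilateral and 0.29 contralateral. S100a9 read 6.96 in P4htm-/- ipsilateral, 6.74 in WT ipsilateral, 5.39 in P4htm-/- contralateral and 4.28 in WT contralateral cortex, the last not above background, so that its contralateral difference is at least 0.61. S100a8 was at 0.42 ipsilateral and at least 0.50 contralateral. Ltf, the only neutrophil marker above background on all 4 arrays, differed little and read 5.46, 5.59, 5.52 and 5.44 in the same order. It was at -0.13 ipsilateral and 0.08 contralateral. Ngp was above background on the P4htm-/- ipsilateral array alone, and Camp, Mmp8, Mpo, Elane and Cxcr2 on none. Of the blood list, Hbb-b2, a hemoglobin gene, read 6.26, 6.14, 6.04 and 5.06 in that order of arrays, Ptprc, the leukocyte antigen CD45, 7.09, 7.27, 6.36 and 6.41, and Hba-a1 and Slc4a1 were not above background on any array. Alas2, an enzyme of heme synthesis in red cells, was above background on the WT ipsilateral array alone. The medians of Hbb-b2, Ptprc and Alas2 were -0.01 ipsilateral and 0.00 contralateral. The summed linear signal of the 4 neutrophil markers, with WT contralateral cortex set to 100, was 313 in P4htm-/- ipsilateral, 261 in WT ipsilateral and 122 in P4htm-/- contralateral cortex, with most of them at the background limit on the WT contralateral array, and that of these 3 blood genes was 165, 173 and 120. The part of these cells in the HSP70 values was not tested.

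Between the sides of the brain, 8 of 9 detected reactive astrocyte markers were past 1.5-fold higher in P4htm-/- and 9 of 9 in WT mice, with medians of 1.94 and 2.13 after raising values below background to it. Medians for P4htm-/- and WT mice were -0.015 and -0.195 for neurons, 0.005 and -0.06 for astrocytes, 0.26 and 0.15 for microglia, 0.215 and 0.29 for endothelial cells, -0.13 and -0.08 for oligodendrocytes, and, raised to background in the same way, 0.265 and 0.385 for choroid plexus and ependyma, 0.845 and 1.055 for neutrophils and 0.22 and 0.86 for blood cells. Ttr, a choroid plexus gene, read 13.62 in P4htm-/- ipsilateral, 14.06 in WT ipsilateral, 9.03 in P4htm-/- contralateral and 8.71 in WT contralateral cortex.

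The profiles of other genes were compared with that of the HSP70 pair, with no limit set for likeness. Likeness was the Euclidean distance between profiles over the 4 arrays after centring each on its mean, among 110 genes outside the group that were detected on all arrays and ranged over at least 1.0. The nearest were Hbb-b2 at a distance of 0.899, Rsad2, an interferon-induced gene, at 0.954, Atf3 at 1.016, Cebpd, a transcription factor of the acute phase response, at 1.048 and Ch25h, which encodes cholesterol 25-hydroxylase, at 1.072. Hspb1 was at 1.075. Hspa1a and Hspa1b were each 0.156 from their mean, equal by construction because a pair is equally far from its own mean. Rsad2 read 7.42 in P4htm-/- ipsilateral, 6.86 in WT ipsilateral, 6.52 in P4htm-/- contralateral and 6.08 in WT contralateral cortex. The largest contralateral genotype difference among the 5 was 0.98, for Hbb-b2. None could exceed the pair there, since Hspa1b and Hspa1a ranked 1st and 2nd of all detected genes. A profile of 4 arrays is short, and the order of these genes rests on small distances.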

How the data were processed

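Cortical RNA of 4 mice was pooled per condition and hybridized to Affymetrix mouse genome arrays, 1 per condition. The deposited table holds RMA values, taken as log2. The submitters' processing notes name RMA, a method that corrects background and gives all arrays 1 distribution, which removes any shift common to all transcripts. Software versions and the logarithm's base were not found in the labels or the methods. Base 2 was inferred from the range, 2.51 to 14.9. The array medians were 5.53 to 5.55.

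Of 45101 probe sets, 34958 name 1 gene, 932 several and 9211 none in the platform annotation, and 34754 symbols were looked up through their Entrez ID in a RefSeq table for GRCm38.p6. Gene-level counts used the probe set with the highest mean. A gene counted as higher or lower past 1.5-fold (0.585 as log2) if either array of the pair exceeded background. Values below background were raised to it where a difference is given as a bound, and in the medians and sums of lists with genes near background, a choice made after their values were seen. No test was made, since there are no replicates. The chaperone genes and all lists were chosen with earlier results of these data known. Named genes were all chaperone genes with every probe set, P4htm, genes drawn from those of each list past 1.5-fold or among its 3 of highest mean, and the 5 nearest profiles. Chordc1, Hspd1, Hspa1l, Fos, Fkbp5, Per1, Zbtb16, Hba-a1, Slc4a1, Camp, Mmp8, Mpo, Elane, Cxcr2 and the chromosome 17 neighbours fall outside this rule and were named after their values were seen. The counting step was tested on simulated data. The table held 0 unused columns. Promoter sequences are from RefSeq. Computations used Python 3.11.15 (numpy 2.4.6, pandas 2.3.3, matplotlib 3.10.9), and cyclic loess was run in limma 3.58.1 under R 4.3.3.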

Additional observations from a re-analysis of the deposited data

Results flagged for a closer look

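In 3 chaperone genes the main probe set differed in opposite directions in the 2 pairs of arrays of a comparison, and the difference between the pairs was not tested. For P4htm-/- minus WT cortex, Hsph1 was at 0.06 ipsilateral and -0.03 contralateral, and Dnaja1 at 0.04 and -0.03. For ipsilateral minus contralateral cortex, Hspa8 was at 0.04 in P4htm-/- and -0.11 in WT mice. All 6 values are smaller than the SD between probe sets of the same gene, 0.13 to 0.18.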

How the results depend on the processing

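Alternatives were the mean of all probe sets of a gene, the probe set of second highest mean, median centring, cyclic loess, no detection filter, a stricter background limit of 6.59 (the 99th percentile of the receptor probe sets) and a 2-fold rule. Of 72 alternative values 69 kept their size and 0 changed sign. Many of the 69 could not move or could move only slightly, so this count is no measure of robustness. Array medians of 5.53 to 5.55 left median centring little to shift. Hspa1a and Bag3 have 1 probe set each, so the choice of probe set could not alter them. A difference kept its size if it moved by less than the SD between probe sets of the same gene, 0.13 to 0.18. That is close to some of the chaperone medians, so the rule is loose for them. Without a filter or with the stricter limit no chaperone value could change, since every main probe set was above 6.59 on all arrays, the lowest value being 6.95 for Bag3. With the 2-fold rule the count of chaperone genes past the limit was 0 in place of 2 for P4htm-/- minus WT ipsilateral cortex, 0 in place of 3 for ipsilateral minus contralateral cortex in P4htm-/- mice and 2 in place of 4 in WT mice, and 2 for the contralateral cortex as before. The HSP70 mean ran from 0.78 to 0.805 for P4htm-/- minus WT ipsilateral, from 1.61 to 1.65 for contralateral cortex, from 0.84 to 0.88 between sides in P4htm-/- and from 1.67 to 1.718 in WT mice. Among all detected genes, the 51 past 1.5-fold in the contralateral comparison became 32 with the mean of probe sets, 77 with the second probe set, 82 without a filter, 15 with the stricter limit and 6 with 2-fold. With the stricter limit the 89 of the ipsilateral comparison became 48, the 226 of the side comparison in P4htm-/- mice 134 and the 381 in WT mice 220, and with 2-fold they became 5, 76 and 109. No paired analysis was possible because each condition has 1 array.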

Other observations

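Hspa1a and Hspa1b lie together on chromosome 17, and the genes around them were looked at after the HSP70 values were seen. A part of the chromosomal place in the HSP70 values was not tested. Of the 10 measured genes on either side, 14 of 20 were detected, 0 were past 1.5-fold in P4htm-/- minus WT cortex on either side of the brain, and the contralateral differences ran from -0.19 to 0.39 with a median of -0.03. Of all detected genes, 0.227% were higher and 0.159% lower contralateral, and 0.0898% and 0.576% ipsilateral, so 0 of 14 is near the share over all genes. For ipsilateral minus contralateral cortex 1 of the 14 was past 1.5-fold higher in each genotype, beside 1.53% of all detected genes in P4htm-/- and 2.42% in WT mice. It was D17H6S56E-5 in P4htm-/- mice, at 0.70, where it was at 0.55 in WT mice, and Clic1, a chloride channel protein, in WT mice, at 0.94, where it was at 0.58 in P4htm-/- mice.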
